A study of Mus musculus with 8 samples.

Results

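The 8 genes described here mark or are released by cortical inhibitory interneurons: Sst, Npy, Vip and Cck, which encode neuropeptides, Pvalb and Calb2, which encode the calcium-binding proteins parvalbumin and calretinin, Lhx6, which encodes a transcription factor, and Reln, which encodes the secreted glycoprotein reelin. They were taken as a fixed list of symbols, and all 8 were found among the 57186 genes listed and among the 16766 tested. Total RNA of mouse brain was sequenced in 4 control libraries and 4 libraries of conditional knockout (cKO) mice for Akap11, a gene for an anchoring protein of protein kinase A (PKA). The tissue label, spelled brian, is read here as brain, and it names no region. None of the sources used here gives the control genotype, the recombinase and the cells it acts in, the targeted exons, the strain, the age or the sex. They do not say either that each library is a separate animal, so that the spread behind each p-value is that between libraries and may be technical.

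Cortical interneurons release the inhibitory transmitter GABA and fall into subclasses that are recognised by what they express. Cells that express Sst or Pvalb come from the medial ganglionic eminence of the embryo, where Lhx6 specifies them, whereas cells that express Vip come from the caudal ganglionic eminence. Pvalb cells mostly inhibit the soma of pyramidal cells, Sst cells their dendrites, and Vip cells mainly other interneurons. Npy and Reln are found in neurogliaform cells and in part of the Sst cells, Cck in basket cells and Calb2 in many Vip cells. None of the 8 is exclusive to cortical interneurons: many pyramidal cells express Cck, thalamic and olfactory bulb neurons Calb2, cerebellar granule cells and Cajal-Retzius cells Reln, and Purkinje cells Pvalb. PKA phosphorylates the transcription factor CREB, and the cAMP response element (CRE) to which CREB binds was described in the somatostatin gene.

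The promoters of the 3 peptide genes in which a CRE motif was found are shown for that reason, as 250 bases before to 50 bases after the start of the gene, taken from RefSeq (build GRCm38.p6, not the GRCm39 build of the counts). Capitals mark TGACGTCA, the palindromic CRE, or the shorter motif TGACG contained in it, searched on both strands.
Sst, chr16:23890795-23891094 (- strand): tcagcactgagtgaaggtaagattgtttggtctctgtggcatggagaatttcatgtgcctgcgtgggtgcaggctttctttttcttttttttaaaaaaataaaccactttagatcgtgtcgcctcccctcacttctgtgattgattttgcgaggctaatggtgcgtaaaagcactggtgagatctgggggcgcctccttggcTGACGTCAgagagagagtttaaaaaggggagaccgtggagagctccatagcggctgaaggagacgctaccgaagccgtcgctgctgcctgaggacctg
Vip, chr10:5638968-5639267 (+ strand): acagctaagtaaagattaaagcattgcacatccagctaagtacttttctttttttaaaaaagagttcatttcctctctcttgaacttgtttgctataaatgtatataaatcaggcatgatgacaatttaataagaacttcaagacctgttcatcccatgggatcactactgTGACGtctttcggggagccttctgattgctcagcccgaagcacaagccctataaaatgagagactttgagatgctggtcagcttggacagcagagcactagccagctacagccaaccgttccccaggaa
Cck, chr9:121495645-121495944 (- strand): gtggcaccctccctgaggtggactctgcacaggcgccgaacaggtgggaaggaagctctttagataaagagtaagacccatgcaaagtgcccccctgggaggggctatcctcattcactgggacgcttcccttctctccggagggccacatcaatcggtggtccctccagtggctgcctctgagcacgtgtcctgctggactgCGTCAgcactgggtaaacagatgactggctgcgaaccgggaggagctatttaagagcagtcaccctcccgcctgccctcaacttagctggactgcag

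In Sst the palindrome covered bases -48 to -41 before the start. It was found in 1.79% of the 32851 promoters of this length in the table, and in 1 of the 10 promoters listed for 7 of the 8 genes (Sst, Npy, Vip, Pvalb, Cck, Lhx6 and Reln). TGACG alone occurred at bases -79 to -75 in Vip and, on the opposite strand, at -47 to -43 in Cck, and 20.8% of all promoters held it. The Npy, Pvalb, Lhx6 and Reln promoters held neither motif in this window. Base composition differed widely among the 7 genes, from 41.7% GC in the Vip promoter to 80.7% in that of Reln, against a median of 52.7% over all promoters. A match of letters is a description of the sequence and not a measured binding site.

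Reads in genes numbered 13841218 to 19991942 per library, and the 8 genes were covered by 302 to 4104 reads each in every library. Library cKO replicate 1 had 63.8% of its listed reads in genes and cKO replicate 2 had 79.7%, against 73.7% to 75.5% in the others. On the first principal component cKO replicate 1 lay apart, and on the second control replicate 1. Akap11 stood at 373, 312, 315 and 291 CPM (read counts scaled to library size with TMM factors) in the controls, in the order of replicates 1 to 4 kept throughout, and at 220, 214, 237 and 240 CPM in the cKO libraries. Every cKO library was below every control library, and Akap11 fell by 29.3% (adjusted p 0.0103 by edgeR), a call that held in 6 of 8 fits with 1 library left out (lost without control replicate 2 or cKO replicate 2) and was lost with 1 surrogate variable (adjusted p 0.0676, log2 fold change -0.47). Snap25, a synaptic gene of neurons in general, ranged from 2240 to 2600 CPM, and Slc17a7, the vesicular glutamate transporter of cortical excitatory neurons, from 1000 to 1250 CPM. Striatal Drd1 (37.1 to 48.4 CPM) and thalamic Prkcd (58.3 to 73.2 CPM) were detected in every library, so the levels of the 8 genes may include regions outside cortex. Gabra6, which defines cerebellar granule cells, was at 0 in 3 libraries and reached at most 4.52 CPM, in control replicate 2.

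None of the 8 interneuron genes passed the test between cKO and control brain (edgeR, adjusted p under 0.05), where 4 of all 16766 genes did, or 0.0239%. Of the 8, 1 reached an unadjusted edgeR p under 0.05, beside 4.78% of all genes, and in 1 the groups did not overlap, beside 2.96% of all genes; both times it was Reln. Their median log2 fold change, cKO minus control, was 0.036, beside 0.0034 over all genes tested, and 5 of 8 estimates were positive beside 51.2% of all genes. DESeq2 and limma voom also called 0 of the 8. In bulk RNA, fewer cells of a type and less RNA per cell cannot be told apart.

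**Figure D1:**
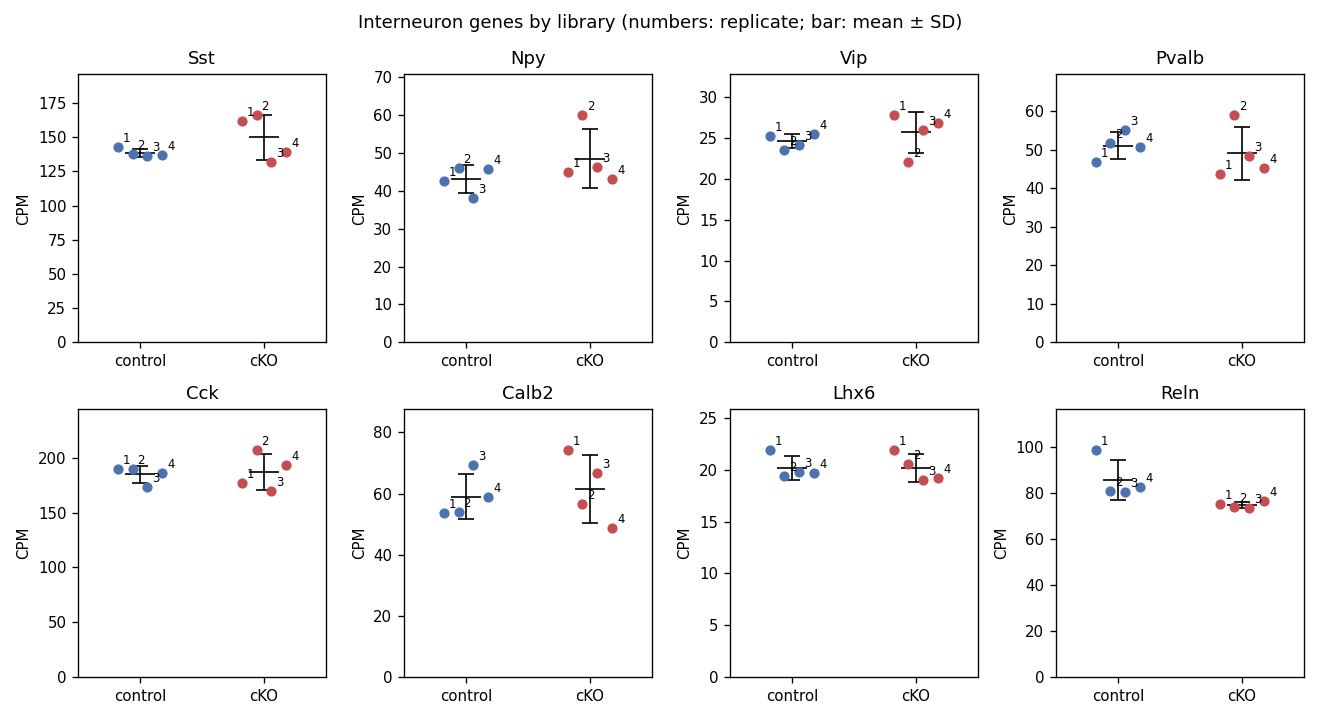
CPM of the 8 interneuron genes in each library (vertical axes, each from 0), with control libraries in blue, cKO libraries in red, replicate numbers beside the points, and bars for mean ± SD (n = 4). Only for Reln do all 4 cKO libraries (73.2 to 76.2 CPM) lie below all 4 control libraries (80.4 to 98.5 CPM).

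Among the peptide genes, Sst encodes somatostatin, which dampens release of transmitter and hormones. Control libraries held 143, 138, 136 and 137 CPM, and cKO libraries 162, 166, 132 and 139 CPM. The controls lay close together, whereas cKO replicates 1 and 2 stood above all of them and cKO replicate 3 below all of them, so the groups overlapped. The difference was 8.03% (95% interval -2.25% to 19.4%), or 0.11 on the log2 scale (SE 0.0691), with an adjusted p of 0.889 by edgeR. On the log2 scale it was 0.067 without cKO replicate 1 and 0.059 without cKO replicate 2, but 0.165 without cKO replicate 3 and 0.141 without cKO replicate 4. Counts of 2174 to 3282 reads lay behind these values.

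Npy encodes neuropeptide Y, an inhibitory peptide of GABAergic cells. Its level was 42.6, 46.1, 38.1 and 45.8 CPM in the controls and 44.9, 60.0, 46.2 and 43.2 CPM in the cKO libraries. A single library, cKO replicate 2, was well above the rest, and the other 3 cKO libraries lay within or just above the control range. The estimate was 12.8% higher in cKO (95% interval -1.69% to 29.5%; log2 fold change 0.17, SE 0.0949, edgeR adjusted p 0.889). Without cKO replicate 2 the log2 fold change was 0.054.

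Vip encodes vasoactive intestinal peptide, whose receptors raise cAMP. Control libraries held 25.3, 23.6, 24.2 and 25.5 CPM and cKO libraries 27.8, 22.1, 26 and 26.9 CPM. Here cKO replicate 2 was the lowest of all 8 libraries and the other 3 cKO libraries were the highest. With all libraries the log2 difference was 0.057 (95% interval -0.12 to 0.24, SE 0.085, adjusted p 0.926 by edgeR), and it was 0.12 without cKO replicate 2, still not past the threshold.

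Cck, the gene for cholecystokinin, was at 190, 190, 173 and 186 CPM in control and 177, 207, 170 and 193 CPM in cKO brain. The control range lay inside the cKO range. The difference was 1.02% (95% interval -7.94% to 10.9%; 0.015 on the log2 scale, SE 0.0642, adjusted p 0.976 by edgeR), the narrowest interval of the 8 genes on the log2 scale.

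Pvalb, whose product buffers calcium in fast-spiking cells, was at 46.8, 51.6, 55.2 and 50.6 CPM in the controls and at 43.7, 58.9, 48.3 and 45.2 CPM in the cKO libraries. Both the lowest and the highest library were cKO. Its estimate on the log2 scale was -0.056 (95% interval -0.23 to 0.12, SE 0.0853, adjusted p 0.929 by edgeR), and it was -0.16 without cKO replicate 2. The interval in percent ran from -15.0% to 8.87%.

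Calb2 varied most among the 8 genes within both groups, with a coefficient of variation of 12.5% in control and 18.3% in cKO libraries. It was at 53.5, 53.9, 69.3 and 58.9 CPM in control and 74.2, 56.5, 66.7 and 48.7 CPM in cKO brain. The control range lay inside the cKO range. Its log2 difference, 0.057 (95% interval -0.20 to 0.32, SE 0.121, adjusted p 0.951 by edgeR), had the widest interval of the 8. The sign turned with 1 surrogate variable (-0.063), without cKO replicate 1 (-0.045) and without both first replicates (-0.083).

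Lhx6 is needed for the migration and maturation of Sst and Pvalb cells and stays on in them. Control libraries held 21.9, 19.4, 19.8 and 19.7 CPM, and cKO libraries 21.9, 20.6, 19.0 and 19.2 CPM. In each group replicate 1 was the highest, and the groups overlapped. The means were equal at 20.2 ± 1.14 and 20.2 ± 1.33 CPM (SD, n = 4 per group), and the interval of the difference ran from -11.9% to 12.9% (edgeR adjusted p 0.996).

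Reln encodes reelin, which guides neuronal positioning in development and modulates synapses in the adult. It was at 98.5, 80.8, 80.4 and 82.5 CPM in the controls and at 75.3, 73.8, 73.2 and 76.2 CPM in the cKO libraries. The 4 cKO values lay close together and all below the lowest control, and control replicate 1 stood far above the other controls. The estimate was 12.8% lower in cKO brain (95% interval -21.0% to -3.71%; log2 fold change -0.20, SE 0.0682), with an unadjusted edgeR p of 0.00919 that ranked 86th of 16766 genes and an edgeR adjusted p of 0.889. Without control replicate 1 the log2 fold change was -0.12 and the unadjusted edgeR p 0.0612. Leaving out this highest control could not make the groups overlap.

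Transcript length and the markers of other cells that express Reln are given beside it, and their part in its difference was not tested. Its longest transcript, of 11699 bases, is the longest of the 8 genes. The 926 tested genes with a transcript of at least 8000 bases had a median log2 fold change of -0.074, or -0.031 without control replicate 1, and 78.8% of them were negative. In control replicate 1 these genes lay above the other controls by a median of 0.14 on the log2 scale, and Reln by 0.28. Cbln3, a marker of cerebellar granule cells, was at 0.796, 13.2, 1.28 and 0.753 CPM in control and 0.507, 0.807, 0.653 and 3.91 CPM in cKO libraries, highest in control replicate 2 and next in cKO replicate 4. The Cajal-Retzius marker Trp73 was at 1.59 to 2.76 CPM in control and 1.36 to 2.61 CPM in cKO libraries. Of the 6 Cajal-Retzius genes listed, all 6 were tested and none passed (median -0.13). Their summed level was 110 to 122 CPM in control and 109 to 119 CPM in cKO brain. Most of it came from Cacna2d2 and Ndnf (control means 81.7 and 22.1 CPM), so it says little about Trp73. Of the 13 cerebellar genes, which include Reln and Pvalb, 11 were tested and none passed (median -0.089). Their summed level, 391 to 459 CPM in control and 361 to 396 CPM in cKO brain, contains Reln itself (control mean 85.5 CPM) and was led by Calb1 (146 CPM).

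**Figure D2:**
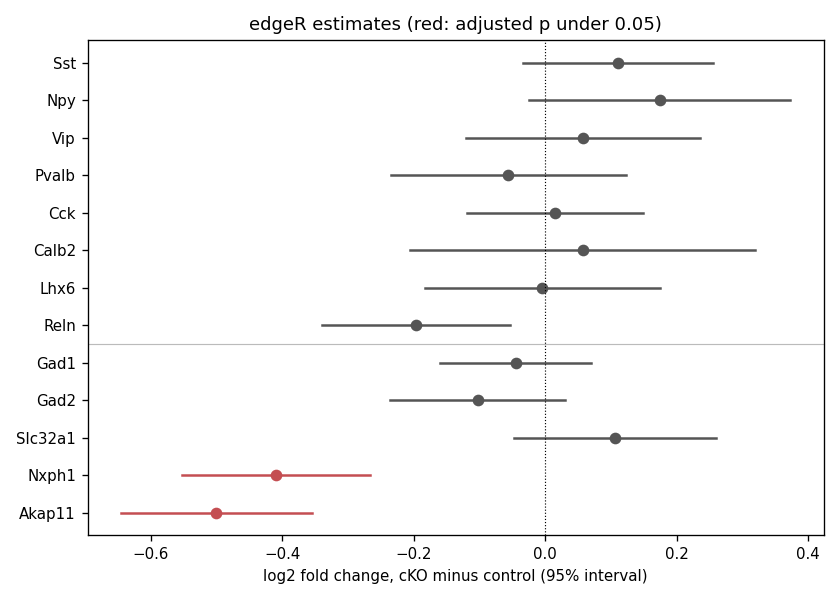
Log2 fold change, cKO minus control, from edgeR (horizontal axis) with 95% intervals for the 8 interneuron genes, and below the grey line for 3 general GABA genes, Nxph1 and Akap11. Red marks an adjusted p under 0.05: Nxph1 at -0.41 and Akap11 at -0.50 lie left of all 8 interneuron genes, which run from -0.20 (Reln) to 0.17 (Npy).

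Levels of different genes were compared per kilobase of the longest annotated transcript. In control brain the order was Cck at 232 ± 10.1 CPM per kilobase (SD, n = 4), Sst at 192 ± 4.53, Npy at 76.2 ± 6.52, Pvalb at 52.2 ± 3.52, Calb2 at 41.2 ± 5.15, Vip at 9.74 ± 0.366, Reln at 7.31 ± 0.741 and Lhx6 at 5.80 ± 0.327. In 7 of the 8 libraries the order was the same. The exception was cKO replicate 1, in which Sst stood above Cck and Calb2 above Pvalb. Over the control libraries only the ranges of neighbours Pvalb (47.9 to 56.5) and Calb2 (37.4 to 48.4) met, and over the cKO libraries also those of Cck (213 to 259) and Sst (182 to 230) and of Reln (6.25 to 6.51) and Lhx6 (5.46 to 6.28). On this scale Sst was thus far more abundant than Vip in every library, with a lowest value of 182 against a highest of 11 CPM per kilobase.

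The subclass markers were then set against one another within each library, which does not depend on how libraries are scaled. The ratio of Sst reads to Pvalb reads was 3.06, 2.68, 2.46 and 2.71 in control libraries against 3.71, 2.81, 2.72 and 3.08 in cKO libraries. The groups overlapped, though cKO replicate 1 lay above all others (difference 0.17 on the log2 scale, two-sided exact permutation p 0.143). For Sst to Vip the ratio was 5.65, 5.87, 5.59 and 5.37 in control and 5.84, 7.47, 5.05 and 5.18 in cKO libraries. This ratio was the steadiest of the 3 among controls, and the cKO libraries lay on both sides of them (difference 0.049, exact permutation p 0.886). Pvalb to Vip stood at 1.85, 2.19, 2.28 and 1.98 in control and at 1.57, 2.66, 1.85 and 1.68 in cKO libraries. Again cKO replicate 2 was the highest, and 2 of the other 3 cKO libraries were below all controls (difference -0.12, exact permutation p 0.514).

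Over all 28 pairs of the 8 genes, 3 ratios had groups that did not overlap and an exact permutation p of 0.0286, the smallest that 4 against 4 libraries allow, and 0 passed after adjustment over the 28 (lowest adjusted p 0.267). Sst to Reln was higher in all 4 cKO libraries, at 2.16, 2.24, 1.80 and 1.83 against 1.45, 1.71, 1.69 and 1.66 in control. Lhx6 to Reln was likewise higher in all 4, at 0.291, 0.279, 0.260 and 0.252 against 0.222, 0.240, 0.246 and 0.239. Both share Reln and its values. The third was Npy to Pvalb, at 1.03, 1.02, 0.957 and 0.954 in cKO against 0.911, 0.893, 0.691 and 0.905 in control libraries, with control replicate 3 well below the rest. The log2 difference in this ratio was 0.23, and 0.13 without control replicate 3. How often ratios of other gene pairs separate the groups is not given here, so the count of 3 cannot be set against it. Within the lineage that expresses Lhx6, the ratio of Sst to Lhx6 differed by 0.11 (exact permutation p 0.0857) and that of Pvalb to Lhx6 by -0.063 (exact permutation p 0.657) on the log2 scale.

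**Figure D3:**
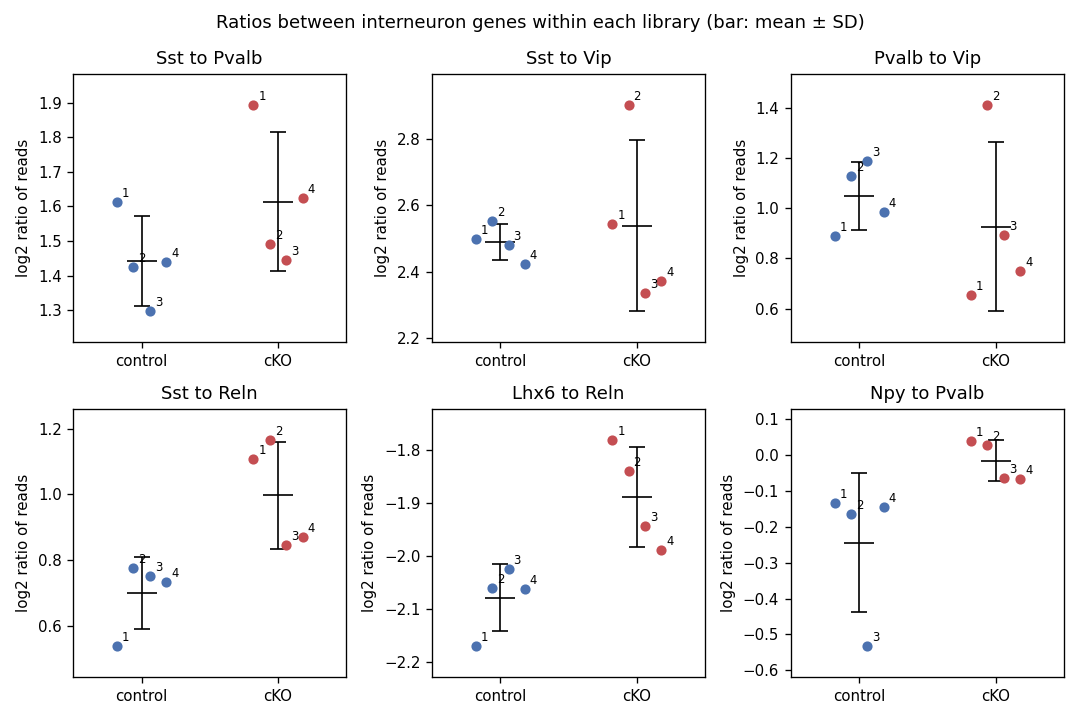
Log2 ratio of reads of 2 interneuron genes within each library (vertical axes, which differ between panels and do not start at 0), control in blue and cKO in red, replicate numbers beside the points, bars for mean ± SD (n = 4). The 3 subclass ratios in the upper row overlap between groups, and the 3 in the lower row do not.

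Across the 8 libraries Vip and Pvalb ran in opposite directions. Pearson's r of their log2 CPM was -0.928 (n = 8, exact permutation p 0.00109, 0.0305 adjusted over 28 pairs) and Spearman's rho -0.905 (exact permutation p 0.00456, 0.128 adjusted). Without cKO replicates 1 and 2, which lie farthest from the median of Vip, r was -0.790. These libraries also had the lowest and the highest share of listed reads in genes, 63.8% and 79.7%, against 73.7% to 75.5% in the others. The part of this share in the correlation was not tested. With group means removed r was -0.924, and it was -0.572 within the 4 controls and -0.998 within the 4 cKO libraries, too few for a test. After the trend with GC content was removed from each library r was -0.725 (unadjusted exact permutation p 0.0346). This p is not adjusted over the 28 pairs and cannot be set beside the adjusted 0.0305. The Vip transcript has 38.7% GC and that of Pvalb 49.3%. Among the 27 other pairs none passed after adjustment. The nearest were Cck with Calb2 (r -0.748, rho -0.738, exact permutation p 0.0342 and 0.0458) and Sst with Lhx6 (r 0.686, rho 0.667, exact permutation p 0.0499 and 0.0831), each with an adjusted p for r of 0.466. Left without its 2 farthest libraries, the first had an r of -0.949 and the second of 0.722.

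**Figure D4:**
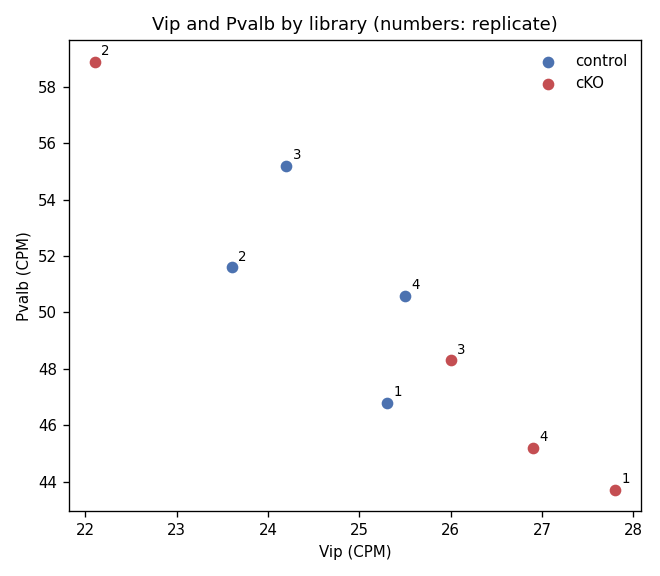
Vip CPM (horizontal axis) against Pvalb CPM (vertical axis) in each library, control in blue and cKO in red, with replicate numbers; neither axis starts at 0. The points run from cKO replicate 2 at the upper left (22.1 and 58.9 CPM) to cKO replicate 1 at the lower right (27.8 and 43.7 CPM), with the 4 controls between them.

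The spread among cKO libraries exceeded that among controls for 7 of the 8 genes, all but Reln, as a coefficient of variation of CPM. The same held for 64.1% of the 10368 tested genes with a mean of at least 10 CPM. For Sst it was 2.36% in control and 11.2% in cKO libraries, and for Reln 10.1% and 1.84%. Without cKO replicate 1 the count was 6 of 8 beside 48.0% of all genes, without cKO replicate 2 it was 4 of 8 beside 61.5%, and without both it was 3 of 8 beside 30.7%.

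By a fixed rule, the 3 genes whose group-centred log2 CPM followed each member most closely over the 8 libraries were named from 11442 genes, as a description. For Sst these were Tmem151b, Nde1 and Igsf21 (r 0.984 to 0.992), for Npy Hpca, Cadm4 and Hnrnpa0 (0.969 to 0.997), and for Vip Gna13, Mtmr4 and Syt9 (0.970 to 0.980). Pvalb was followed by Mageh1, Cend1 and Mrpl23 (0.971 to 0.988), Cck by Id1, Mrps12 and Krt1 (0.941 to 0.992), and Calb2 by Lrrc75b, N4bp2 and Pmp22 (0.980 to 0.984). Lhx6 ran with Nell1, Kif5a and Znfx1 (0.983 to 0.988) and Reln with Epha4, Gpc6 and Pcdhgb6 (0.971 to 0.983). No member was among the 3 nearest genes of another. These are the highest of 11442 values each, over 8 libraries, and carry no test.

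The machinery of the GABA phenotype gave no call. Gad1 and Gad2, which encode the enzymes that make GABA, stood at 479 ± 23.7 and 319 ± 20.4 CPM in control and 465 ± 16.3 and 297 ± 23.1 CPM in cKO brain (SD, n = 4). Their log2 fold changes were -0.045 (95% interval -0.16 to 0.070) and -0.10 (-0.24 to 0.031). Slc32a1, the vesicular GABA transporter, was at 124 ± 4.05 and 133 ± 16.7 CPM, a log2 fold change of 0.11 (-0.047 to 0.26), with cKO replicates 1 and 2 at 146 and 149 CPM above all controls, as they were for Sst. Of 7 genes in this list 0 passed (median -0.045), and of 19 transcription factors of interneuron identity 0 passed either (median -0.0040); Etv1 at -0.094, Satb1 at -0.093 and Maf at -0.13 were among those with the lowest p-values.

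Other genes of the subclasses were taken from lists written with earlier results of these data known. In the Sst list 1 of 14 passed, beside 0.0239% of all genes tested, and it was lower. It was Nxph1, which encodes a secreted neurexin ligand made by many cortical interneurons. Nxph1 was already known from earlier results to pass when it was listed, so this count says nothing about the Sst subclass. Nxph1 was at 44.8, 42.5, 41.1 and 42.8 CPM in control and 31.8, 32.1, 33.4 and 31.5 CPM in cKO libraries, and fell by 24.7% (95% interval -31.8% to -16.8%, adjusted p 0.0333 by edgeR). The call held in 1 of the 8 fits that leave out 1 library, the one without cKO replicate 1, with log2 fold changes from -0.43 to -0.38 and adjusted p up to 0.238. It was also lost with library totals (adjusted p 0.0508), limma voom (0.0526), 1 surrogate variable (0.0676) and both first replicates left out (0.0952), with log2 fold changes of -0.41 to -0.38 in these 4, and kept with DESeq2 (0.00016). The next genes of this list by p were Calb1 (-0.10), Nos1 (-0.10) and Satb1 (-0.093), and the median of the 14 was -0.035.

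Of 15 tested Pvalb subclass genes 0 passed (median 0.054), and the nearest were the netrin receptor gene Unc5b at 0.17 (unadjusted p 0.0396 by edgeR), Pthlh at 0.41, Nek7 at -0.13 and Tac1 at -0.12. Among 14 Vip subclass genes, which include Calb2, 0 passed (median -0.019), with the enkephalin gene Penk at -0.12, Crispld2 at -0.31, Synpr at -0.085 and the serotonin receptor gene Htr3a at 0.14. In the list for Lamp5 and Sncg cells, which holds Reln, Npy and Cck, 0 of 13 passed (median -0.0020); Krt73 at 0.58 rested on 239 reads in all, and Cnr1, the cannabinoid receptor gene, was at -0.10.

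**Figure D5:**
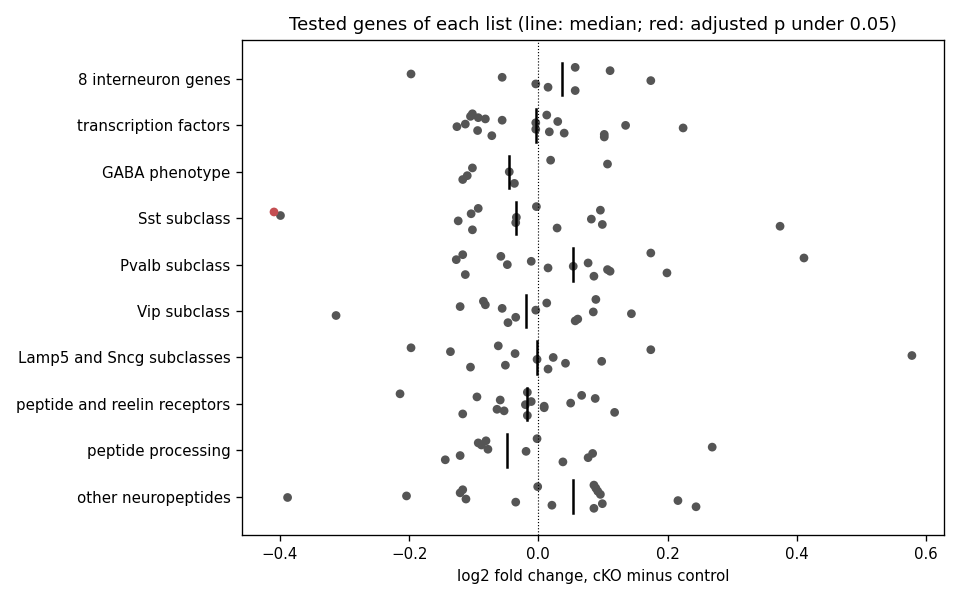
Log2 fold change, cKO minus control (horizontal axis), of every tested gene in each of 10 lists, with a line at the list's median. Medians lie between -0.049 and 0.054, and the single red point, Nxph1 in the Sst list, is the one gene with an adjusted p under 0.05.

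Receptors for the products of these genes were examined next, and none of the 16 tested passed (median -0.017, range -0.21 to 0.12); Npy4r, with 17 reads in all, was not tested. The somatostatin receptor genes stood at 0.050 for Sstr1, -0.011 for Sstr2, -0.059 for Sstr3, 0.088 for Sstr4 and -0.095 for Sstr5 as log2 fold changes. Neuropeptide Y receptors gave 0.0090 for Npy1r, 0.0090 for Npy2r and -0.020 for Npy5r. The signs of Sstr1, Sstr2, Sstr4, Sstr5, Npy1r, Npy2r and Npy5r turned when 1 library was left out. For the VIP receptors, which couple to adenylyl cyclase, Vipr1 was at 0.067 and Vipr2 at -0.21, and the related Adcyap1r1 at -0.017. The cholecystokinin receptor genes Cckbr, the main one in brain, and Cckar were at 0.12 and -0.12. Reelin binds the receptors encoded by Lrp8 and Vldlr and acts through the adaptor encoded by Dab1, and these were at -0.064 (92.9 ± 3.12 and 88.9 ± 7.20 CPM), -0.017 (97.3 ± 5.23 and 96.1 ± 3.64 CPM) and -0.053 (106 ± 4.20 and 102 ± 2.97 CPM; SD, n = 4, control then cKO).

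Peptides are cut from precursors in dense-core vesicles by prohormone convertases. Of 12 genes for this processing and its vesicles 0 passed (median -0.049), with the granin genes Chgb at -0.14 and Scg2 at -0.093, the protease gene Ctsl at -0.12 and the convertase gene Pcsk2 at -0.088. Among 16 other neuropeptide genes 0 passed (median 0.054), and Penk and Nts, the neurotensin gene (-0.20), had the lowest p-values.

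Genes of the surrounding tissue showed the following beside the 8. Of 13 cortical excitatory genes 0 passed, 11 of them with negative estimates (median -0.048), led by Sv2b at -0.14 and Rorb at -0.19; their summed level was 2170 to 2510 CPM in control and 2180 to 2420 CPM in cKO libraries. Among 10 thalamic genes, which include Calb2, 0 passed (median -0.11), with Rora at -0.24 and Prkcd at -0.16 and a summed level of 439 to 508 and 421 to 442 CPM. Of 11 striatal genes 0 passed (median -0.039; summed 1140 to 1270 and 1090 to 1250 CPM), with Pde10a at -0.12, and of 7 tested olfactory bulb genes, which include Calb2, 0 passed (median 0.010; summed 197 to 226 and 187 to 230 CPM). Among 10 astrocyte genes 1 passed and it was higher: Aqp4, the water channel of astrocytic endfeet, was at 135 to 163 CPM in control and 186 to 218 CPM in cKO libraries, with no overlap (log2 fold change 0.46, adjusted p 0.0104 by edgeR). That call held in 3 of 8 fits with 1 library left out, with log2 fold changes of 0.41 to 0.50 and adjusted p up to 0.159. Gfap, the astrocytic filament gene, did not pass at 0.33, though its groups did not overlap either (139 to 219 and 225 to 242 CPM). Slc1a2 went the other way and did not pass at -0.20, with overlapping groups (2520 to 3100 and 2040 to 2580 CPM). Estimates were positive for 6 of the 10 and negative for 4 (median 0.031). The summed level of the 10, of which Slc1a2 was the largest part, was 4580 to 5290 and 4220 to 4750 CPM.

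Of 8 endothelial genes 0 passed, 7 of them with negative estimates (median -0.084, summed 369 to 398 and 350 to 377 CPM), and Abcb1a was at -0.21 with groups apart. Of 8 microglial genes 0 passed, 6 of them with positive estimates (median 0.071, summed 273 to 312 and 280 to 304 CPM). P2ry12 was at -0.26 with groups apart, and Tmem119 at 0.175 with groups that overlapped. Groups lay apart in 2.96% of all genes tested. No gene passed among 7 of the choroid plexus (median -0.20, summed 475 to 660 and 402 to 650 CPM), 9 of oligodendrocytes (median -0.013), 11 of the hypothalamus (median 0.11), 10 of the hippocampus (median -0.011) or 8 of neurons in general (median -0.024). The part of all these tissue genes in the values of the 8 genes was not tested.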

How the data were processed

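Brain RNA of 4 control and 4 Akap11 cKO libraries was analysed. The authors deposited raw counts of reads for each gene and library. Per the submitters' processing notes HISAT2 and GRCm39 were used, while none of the sources used here gives its version or the counter, strand handling and annotation. The 5 entries that name no gene stayed out, leaving 63.8% to 79.7% of listed reads. Symbols were matched by Ensembl identifier (51880 of 57186 genes), and transcript lengths and GC content are those of the longest GENCODE vM21 transcript.

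Counts were filtered with filterByExpr, scaled by TMM and compared between groups in edgeR 4.0.16 under R 4.3.3 (robust quasi-likelihood F-test, group as the one term). Benjamini-Hochberg adjusted p-values cover all 16766 genes tested, with a threshold of 0.05. CPM are TMM-scaled. Ratios used reads plus 0.5 and a two-sided exact permutation test over 70 assignments. Alternatives were DESeq2 1.42.0, its size factors, library totals, no filter, a filter of 1 CPM in 4 libraries, limma 3.58.1 voom, replicate block, GC-content offsets, 1 surrogate variable (sva 3.50.0) and libraries left out. The edgeR steps were tested on simulated data. Members and lists were chosen with earlier results of these data known. Named were the 8 genes, Akap11, Nxph1, Gad1, Gad2, Slc32a1, all tested receptors, up to 4 genes of lowest p per pathway list (1 such gene is not reported here) and 2 per tissue list, and the 3 most alike genes per member (mean of at least 5 CPM); region markers such as Snap25, Slc17a7, Drd1, Prkcd, Gabra6, Cbln3 and Trp73 were chosen after their values were seen. Slc1a2 was named in addition, as the largest part of the astrocyte sum. An antisense gene with 2 reads in all overlaps Reln. Transcript length, within-group spread and the GC-corrected correlation were examined after seeing the data.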

Additional observations from a re-analysis of the deposited data

Results flagged for a closer look

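Of the 28 groups of 4 libraries examined (8 genes and 6 ratios in 2 groups each), 3 held a library whose gap to its nearest neighbour, divided by the group's whole range, was above Dixon's 95% critical value for 4 values, which chance passes in about 1 in 20 groups. Reln in control replicate 1 was at 98.5 CPM, against 80.4 to 82.5 CPM in the other controls (gap over range 0.886). Lhx6 in the same library was at 21.9 CPM, against 19.4 to 19.8 CPM in the other controls (0.844). The log2 ratio of Npy to Pvalb in control replicate 3 was -0.53, against -0.16 to -0.13 in the other controls (0.926). No explanation was tested.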

How the results depend on the processing

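In every alternative 0 of the 8 genes passed, with adjusted p of at least 0.679. Over all 18 alternatives Sst (0.052 to 0.17), Npy (0.054 to 0.23), Vip (0.016 to 0.12), Pvalb (-0.16 to -0.010) and Reln (-0.23 to -0.12) kept their sign. It turned for Cck with GC-content offsets (-0.044; -0.039 to 0.054 with 1 library left out), for Calb2 with 1 surrogate variable (-0.063) and without both first replicates (-0.083; -0.045 to 0.15 with 1 left out), and for Lhx6 with library totals (0.0061; -0.046 to 0.039 with 1 left out). Among receptors it turned with GC-content offsets for Sstr1 (-0.029), Sstr4 (-0.0061), Npy5r (0.018) and Vldlr (0.015), with 1 surrogate variable for Sstr1 (-0.070), Sstr4 (-0.026) and Vldlr (0.00045), and without both first replicates for Sstr1 (-0.018), Npy2r (-0.0034) and Vldlr (0.028). With libraries left out the ranges were -0.041 to 0.13 for Sstr1, -0.15 to 0.056 for Sstr2, -0.014 to 0.18 for Sstr4, -0.39 to 0.14 for Sstr5, -0.058 to 0.10 for Npy1r, -0.078 to 0.085 for Npy2r, -0.17 to 0.063 for Npy5r, -0.014 to 0.14 for Vipr1, -0.041 to 0.013 for Adcyap1r1, -0.44 to 0.035 for Cckar and -0.043 to 0.028 for Vldlr.

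The count of all genes past the threshold, 4, became 7 with no low-count filter, 2 with limma voom, 1 with 1 surrogate variable, 2 without both first replicates and 0 to 3 with 1 library left out (0 without control replicate 2 or cKO replicate 2). The number of the 8 genes with groups apart was 1 with all libraries, beside 2.96% of all genes, and 1 to 2 in the alternatives. Vip joined Reln only without cKO replicate 2, its lowest library. Groups of fewer libraries separate more easily, and the share over all genes for that case is not given here. The log2 difference in Sst to Vip ran from -0.071 to 0.12 with 1 library left out. Libraries with the same replicate number shared only that number: their deviations correlated at 0.0052 to 0.0487, and 2 of 4 matched their own number best. With the replicate block 2 genes passed, 0 of them among the 8, and the Nxph1 call was lost (adjusted p 0.221, log2 fold change -0.41). Paired by replicate number, the 3 ratios at the smallest p had an exact sign-flip p of 0.125, the smallest that 4 pairs allow. Groups that do not overlap give this p under any pairing, so it tells nothing about the block. The cause of these changes was not tested. Precision was limited by 302 to 4104 reads per gene and library and by 4 libraries per group.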
